A study of Mus musculus with 6 samples.

Results

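Paneth cells of mouse small-intestinal organoids were examined in 6 single-cell RNA libraries collected on day 3. They were picked by a rule on the counts: among barcodes with at least 1000 detected genes and under 20% of their unique molecular identifiers (UMIs, 1 per captured RNA molecule) from mitochondrial genes, a member carried at least 3 of the 5 genes Defa17, Defa24, Mmp7, Ang4 and Itln1 at 5 or more per 10000 UMIs each, with the hormone granule genes Chga and Chgb together under 10 per 10000. The rule took 13717 of the 87954 cells kept, and the files held 123544 barcodes. Members had medians of 8408 to 13494 UMIs and 2355 to 3249 genes a cell, and libraries held 7261129 to 60193616 UMIs of members. Pairs of libraries shared 0 to 6 member barcodes. Because these genes chose the cells, their levels are a description here and were not tested.

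The organoid stocks came from 10-week-old mice, and the strain of the wild-type (WT) stock is not given in the sources used here. WT organoids were cultured with vehicle (-EIPA, labelled DMSO, n = 2 libraries) or with 5 µM EIPA, an inhibitor of sodium-proton exchange (+EIPA, n = 2). A CRISPR-Cas9 line carried, after lentiviral transduction, puromycin selection and growth from single clones, a doxycycline-inducible Cas9-GFP and a guide to the first exon of the gene it was made to disrupt. It gave 1 library without doxycycline (-Dox) and 1 with 2 µg/mL (+Dox). Live cells were sorted for every library, but +Dox cells were live and GFP-positive, so that genotype, doxycycline and gate cannot be told apart in that pair. Replicate numbers of the WT libraries mark experiments 1 and 2, each with a vehicle and a treated culture.

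Paneth cells sit at the base of the small-intestinal crypt between stem cells. They fill large granules with lysozyme, alpha-defensins, angiogenin and other secreted antimicrobial proteins, and the matrix protease Mmp7 processes the mouse alpha-defensin precursors. They also give the stem cells next to them Wnt3, Egf and the Notch ligands Dll1 and Dll4, and their own maturation depends on Wnt signalling through TCF factors and on Sox9. EIPA and this line were used in the study to ask how intracellular pH bears on the fate of intestinal epithelial cells.

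The label was checked against Lyz1, lysozyme, which is known for Paneth cells and is no part of the rule. Lyz1 lies on chromosome 10 (117287797 to 117292868, minus strand, GRCm38). Members with all 5 rule genes had a median of 79.7, 121, 114, 113, 256 and 205 Lyz1 UMIs per 10000 in -EIPA replicates 1 and 2, +EIPA replicates 1 and 2, -Dox and +Dox, in that order. Members with exactly 4 had medians between 65.7 and 138. Both groups were far above the cells just outside the rule, which carried 2 rule genes and had medians between 1.34 and 3.34.

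Members with exactly 3 rule genes stood apart in several libraries. Their median Lyz1 was 14.9 and 19.5 per 10000 in replicate 1 of -EIPA and +EIPA and 16.6 in -Dox, but 3.22 and 2.62 in replicate 2 of -EIPA and +EIPA and 6.68 in +Dox. In those last 3 libraries 15.0%, 13.6% and 21.4% of them reached 20 Lyz1 UMIs per 10000, against 72.0% to 89.2% of members with exactly 4 rule genes over the 6 libraries. At least 94.4% of them there reached the level for Defa24, for Defa17 and for Itln1, while Mmp7 did so in 3.57% to 4.51% and Ang4 in 1.12% to 1.98%. Cells with exactly 3 rule genes made up 27.6%, 63.9%, 24.1%, 55.8%, 46.7% and 51.6% of the members of the 6 libraries. Over all members the label therefore did not hold in replicate 2 of either WT group and in +Dox, and the main results are given both for all members and for the 6577 members with 4 or 5 rule genes, a limit chosen after these values were seen.

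**Figure D1:**
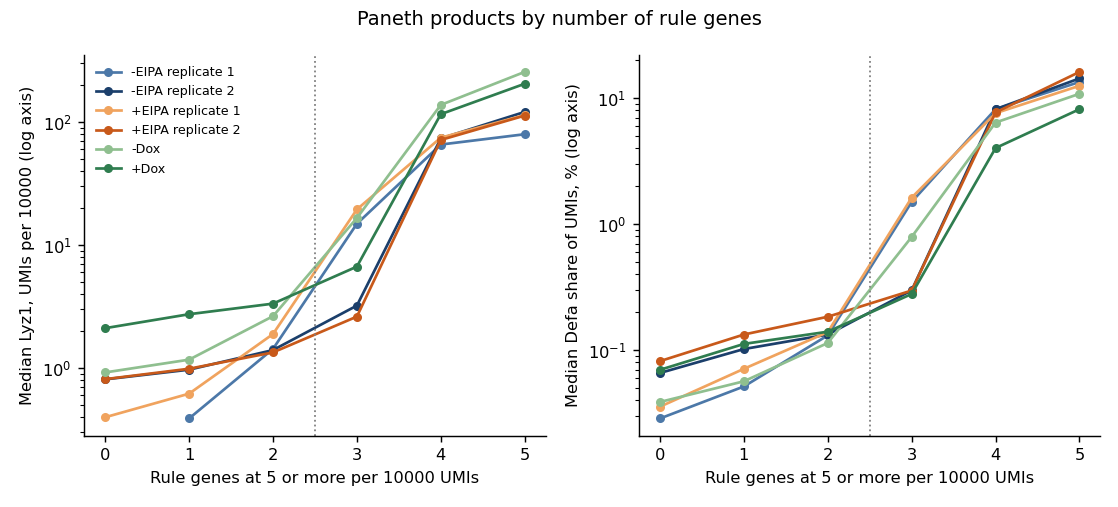
Median Lyz1 level (left, UMIs per 10000, log axis) and median share of UMIs from genes with a Defa symbol (right, percent, log axis) of kept cells, by the number of rule genes at 5 or more per 10000 UMIs, with 1 line per library; the dotted line marks the limit of the rule, and a median of 0 is not drawn. With 4 or 5 rule genes the Lyz1 medians lie between 65.7 and 256, while with 3 they spread from 2.62 to 19.5.

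RNA set free by broken cells can reach every droplet. Enterocytes, which should lack Defa24, had 351 and 963 Defa24 UMIs per 1000000 (CPM) in experiment 1 (-EIPA, +EIPA), 692 and 1160 in experiment 2, 388 in -Dox and 948 in +Dox. Tuft cells, which should lack it too, had 1650 and 2870 CPM in experiment 1 and 2070 and 1690 in experiment 2. They had 1240 CPM in -Dox and 1380 in +Dox. Members were left out of both classes, so cells of these types that passed the rule through free RNA would not count in these levels. In barcodes that were not kept, Defa17 stood at 0.074 and 0.0675 of Defa24 in experiment 1 and between 0.354 and 0.404 in the other 4 libraries. The share of kept cells with no rule gene at the set level was 62.5%, 57.4% and 58.6% in the 2 libraries of experiment 1 and in -Dox, and 16.4%, 3.33% and 5.48% in the 2 libraries of experiment 2 and in +Dox. Defa24 in barcodes that were not kept was at 1880 and 2870 CPM in experiment 1 and at 5010 and 9880 in experiment 2. It was at 1820 CPM in -Dox and 5820 in +Dox. This level and the share with no rule gene both set the libraries of experiment 2 and +Dox apart from the others. The ratio of Defa17 to Defa24 and the Defa24 levels of enterocytes and tuft cells did not. The part of free RNA in the number of 3-gene members was not tested.

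Members were 5.37% of the cells kept in -EIPA replicate 1 (677 of 12606, exact 95% interval 4.98 to 5.78), 17.4% in -EIPA replicate 2, 7.44% in +EIPA replicate 1 and 28.1% in +EIPA replicate 2. In the CRISPR-Cas9 line they were 7.01% of -Dox and 30.2% of the GFP-gated +Dox cells. Intervals cover counting error only. With 4 or 5 rule genes the shares were 3.89%, 6.27%, 5.65%, 12.4%, 3.73% and 14.6%, and with all 5 they were 2.01%, 2.18%, 2.98%, 6.32%, 1.63% and 9.06%.

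Within each experiment the member share was higher with EIPA, by 1.38-fold and 1.62-fold (mean 1.5 ± 0.167 SD, n = 2 experiments). The groups overlapped, since -EIPA replicate 2 lay above +EIPA replicate 1. The two-sided exact permutation test of the 4 shares gave p = 0.667, and a design of 2 against 2 cannot go below 0.333. For members with 4 or 5 rule genes the ratios were 1.45 and 1.99, and with all 5 they were 1.48 and 2.90, where the groups no longer overlapped (exact permutation p = 0.333). The mean ratio was 1.63 when every cell was thinned to 5000 UMIs, which left out 110, 934, 122 and 531 members of the WT libraries. The 3 counts of rule genes are nested, so these ratios are not separate evidence. All of them leave out barcodes that met the marker rule but not the cell limits. Those numbered 1073 and 4134 in -EIPA replicates 1 and 2 and 1021 and 3629 in +EIPA replicates 1 and 2. The shares count cells by levels of the rule genes, which free RNA can raise. Defa24 in barcodes that were not kept went from 1880 to 2870 CPM with EIPA in experiment 1 and from 5010 to 9880 in experiment 2. In enterocytes it was also higher in both experiments, and in tuft cells it was higher in experiment 1 and lower in experiment 2. The part of free RNA in the shares was not tested.

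**Figure D2:**
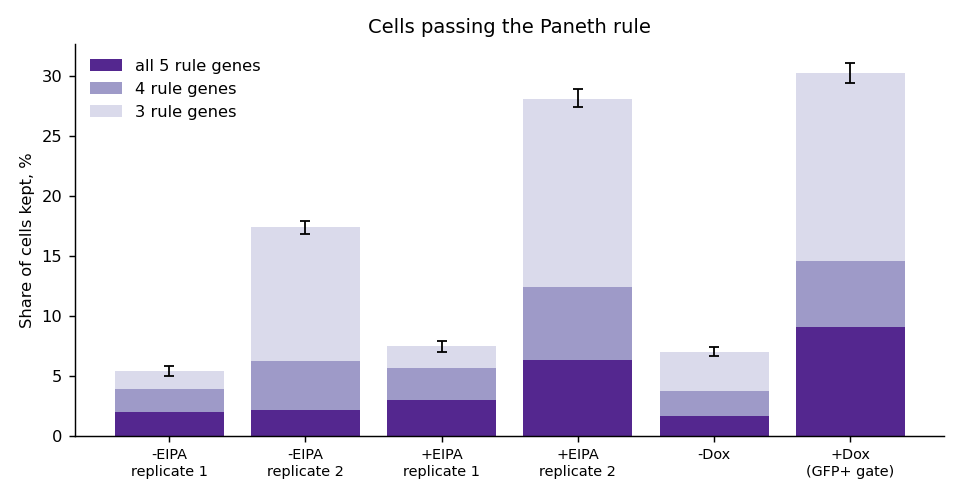
Share of the cells kept (percent) that passed the rule in each library, stacked by the number of rule genes they carried; error bars are exact 95% binomial intervals of the whole bar and cover counting error only. The whole bars run from 5.37% to 30.2%, and the part with all 5 rule genes from 1.63% to 9.06%.

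Alpha-defensins were abundant in these cells, mostly through Defa24 and Defa17, which are part of the rule. The 22 genes with a Defa symbol all lie in 1 cluster on chromosome 8, and all had at least 1 UMI in members with 4 or 5 rule genes. Together they took 12.1% and 11.6% of the UMIs of those members in -EIPA replicates 1 and 2, 11.3% and 14.7% in +EIPA replicates 1 and 2, 9.43% in -Dox and 9.95% in +Dox. Over all members the shares were 9.71%, 5.61%, 9.26%, 7.46%, 6.02% and 5.21%. Defa24 alone (chromosome 8, 21734494 to 21735471, plus strand) held between 6.97% and 10.1% of UMIs in the 4-or-5-gene members. The share differed widely between cells of a library: in -EIPA replicate 1 the middle 90% of 4-or-5-gene members ran from 1.79% to 29.0%, with a median of 10.7%.

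The upstream sequences of 3 defensin genes are shown because the family shares short motifs there, and that of Lyz1 because it holds neither of the 2 motifs in capitals. Each run is the 250 bases before the RefSeq start of the gene (GRCm38.p6), 5′ to 3′ on the strand of the gene. Capitals mark the letters CTTTGAT on either strand (a run with the core of TCF binding sites, ATCAAAG when read on the other strand) and TATAAA on the gene's strand.
Defa30 (chr8:21134400-21134649, plus strand): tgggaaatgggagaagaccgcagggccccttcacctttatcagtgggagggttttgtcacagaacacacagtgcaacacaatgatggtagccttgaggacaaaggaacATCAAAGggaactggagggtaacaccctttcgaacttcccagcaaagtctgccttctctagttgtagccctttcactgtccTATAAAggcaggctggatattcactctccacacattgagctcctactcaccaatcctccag
Defa20 (chr8:21509008-21509257, plus strand): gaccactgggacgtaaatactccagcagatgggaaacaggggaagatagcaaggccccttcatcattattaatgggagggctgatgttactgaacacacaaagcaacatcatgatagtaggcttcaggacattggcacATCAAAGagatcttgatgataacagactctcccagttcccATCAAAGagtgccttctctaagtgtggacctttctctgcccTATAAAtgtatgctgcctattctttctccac
Defa36 (chr8:21427178-21427427, plus strand): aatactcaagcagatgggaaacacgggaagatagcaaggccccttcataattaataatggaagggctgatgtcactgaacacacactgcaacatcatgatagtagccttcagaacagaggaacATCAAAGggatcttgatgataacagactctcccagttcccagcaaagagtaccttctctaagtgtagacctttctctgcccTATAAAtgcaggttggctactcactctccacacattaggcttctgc
Lyz1 (chr10:117292869-117293118, minus strand): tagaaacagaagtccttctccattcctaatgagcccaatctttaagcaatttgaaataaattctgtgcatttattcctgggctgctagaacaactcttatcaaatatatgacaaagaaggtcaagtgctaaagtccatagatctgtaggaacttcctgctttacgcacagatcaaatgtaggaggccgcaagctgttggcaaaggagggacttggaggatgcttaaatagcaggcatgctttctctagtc

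Of the 22 defensin symbols 12 had such a RefSeq entry. CTTTGAT was found in 12 of these 12 and in 3.21% of all 32851 promoters of that length. TATAAA was found in 11 of 12, against 7.59% of all promoters. The shorter CTTTG, which CTTTGAT contains, was in 12 of 12 and in 48.6% of all, and the Lyz1 sequence holds it 2 times. The defensin genes are close copies of each other, so that these 12 are not independent, and a match of letters is a description and not a site. Defa17 and Defa24 had no entry.

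Some defensins differed widely between the experiments or between WT organoids and the CRISPR-Cas9 line, and others less so. In 4-or-5-gene members Defa17 stood at 3400 and 3070 CPM in experiment 1 (-EIPA and +EIPA), at 24600 and 30000 in experiment 2, and at 19400 and 20900 in -Dox and +Dox. Defa24 varied less, at 101000, 94200, 80000, 98600, 69700 and 74300 CPM in the same order. Both genes are part of the rule, so these levels are a description only. Outside the rule, Defa22 was alike in both experiments, at 744 and 764 CPM in the first and 696 and 926 in the second. It was lower in the CRISPR-Cas9 line, at 298 and 198 CPM in -Dox and +Dox.

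Other members of the family outside the rule differed between the experiments in both directions. Defa27 was at 160 and 224 CPM in experiment 1 but at 1.56 and 2.55 in experiment 2, and at 0.276 and 0 in the CRISPR-Cas9 line. Defa20 was low in experiment 1 (9.94 and 15.0 CPM), high in experiment 2 (137 and 174) and low again in -Dox and +Dox (9.10 and 7.08). Gm7861, a gene of the same cluster, was at 130 and 116 CPM, then 922 and 954, then 26.3 and 11.5.

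Another set was high in both WT experiments and low in the CRISPR-Cas9 line. Every other Defa gene outside the rule that reached 10 CPM in some library also had a lower mean level there than in WT, by 2.06-fold for Defa26 and 3.01-fold for Defa30. For Defa20 and Defa32 experiment 1 was near the line, with means of 12.5 and 3.08 CPM against 8.09 and 1.96. The remaining Defa genes had only 1 to 35 UMIs over all libraries. AY761184, a defensin-family gene, had 3000 and 3150 CPM in experiment 1, 2040 and 1690 in experiment 2, and 236 and 24.9 in -Dox and +Dox. Defa29 had 514 and 460 CPM in experiment 1, 176 and 237 in experiment 2, and 12.4 and 0.0354 in the line. Defa36 had 579 and 521, then 325 and 397, then 29.1 and 18.3 CPM, and Gm14851 had 810 and 877, then 220 and 251, then 30.3 and 3.08. The CRISPR-Cas9 line was made from WT organoids, the sources used here do not say whether that stock or the stocks of the experiments came from the same mice, and the cause of these splits was not tested.

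Copies with shared sequence limit the reading of single defensins. Among 91-base windows of their transcripts (the length of the RNA read), Defa24 shared none with another gene, Defa30 3.9% and Defa27 15.6%. Defa17 shared 90.9% of its windows, all with Defa3 or Defa30, Defa20 shared 99.7% and Defa36 94.8%. Of the 22 symbols 21 shared at least 1 window and 12 more than 50%. AY761184 shared none. Only exact matches to annotated transcripts were counted, and closely similar copies were not looked for.

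**Figure D3:**
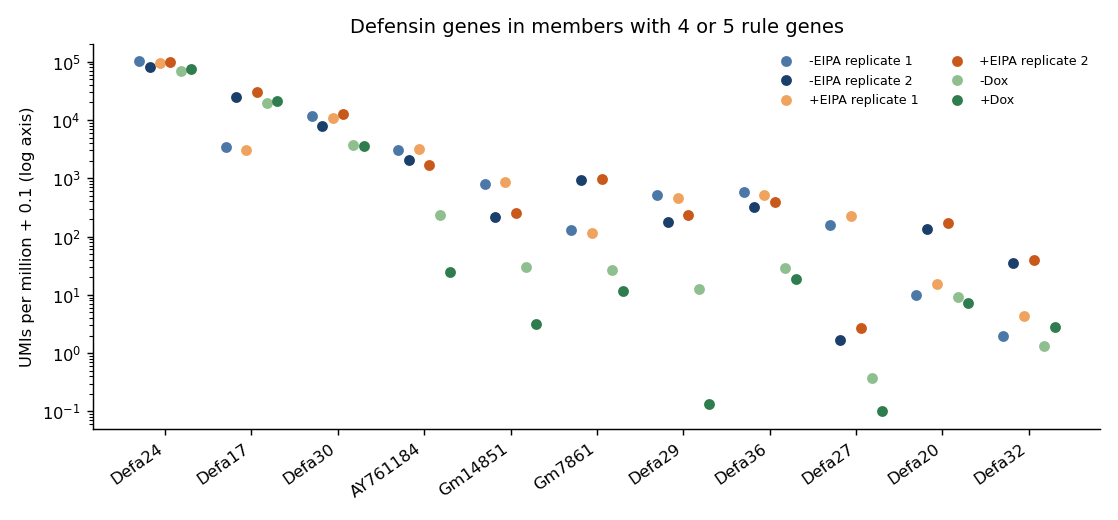
Summed level (UMIs per 1000000 plus 0.1, log axis) of 11 defensin-family genes in members with 4 or 5 rule genes, with 1 point per library. Defa17 is at 3070 to 3400 in experiment 1 and at 24600 to 30000 in experiment 2, and AY761184 is at 24.9 and 236 in the CRISPR-Cas9 line.

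Genes other than defensins were also higher in members than in other cells. Folds are over all kept cells with fewer than 4 rule genes, which include some of the members. They came from means of the 6 libraries with 20 CPM added to both sides, describe the choice of cells and were not tested. Spink4, a protease inhibitor of secretory cells, was 24.6-fold higher in the 4-or-5-gene members and reached 19900 to 32400 CPM. Clps, pancreatic colipase, was 27.3-fold higher, the lectin Reg4 20.4-fold and the pentraxin Mptx2 13.0-fold. Lyz1 was 35-fold higher.

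Goblet genes were part of this profile. Muc2, the main gel-forming mucin of goblet cells, stood at 1460, 966, 1010, 1230, 1390 and 1390 CPM in the 4-or-5-gene members and at 1740, 1290, 1450, 1280, 2630 and 2620 in goblet cells, which carried at most 1 rule gene. Muc2 was among the genes that chose the goblet cells. Summed, the 17 goblet genes listed had 22100 to 27000 CPM in the 4-or-5-gene members and 41200 to 65600 in goblet cells. Folds over the cells with fewer than 4 rule genes were unlike, 13.0 for Tff3 and 1.52 for Clca1. Between 46.5% and 69.6% of the 4-or-5-gene members reached 5 Muc2 UMIs per 10000. Within a library their Muc2 and Lyz1 levels had rank correlations of 0.01 to 0.43 across cells. Over all members those of Muc2 and Lyz1 ran from 0.14 to 0.69, so they depend on the choice of cells. In the 4-or-5-gene members Lyz1 and Defa24 had 0.33 to 0.66 and Defa17 and Defa24 had 0.73 to 0.90. Defa17 and Defa24 chose the cells, so these ranges are a description only. Cells of a library share depth and free RNA, and no test was made. Scores for doublets were in the top 10% of their library for 12.8% to 19.2% of these cells.

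Niche signals and lineage factors were measured against the other cells and against goblet cells, with no test. Wnt3, the Wnt ligand that Paneth cells give to stem cells (chromosome 11, 103774150 to 103817957, plus strand), had 79.7 and 64.7 CPM in -EIPA, 78 and 60.2 in +EIPA, 90.7 in -Dox and 73.0 in +Dox in the 4-or-5-gene members. It was at 3.86 to 5.92 CPM in cells that were no members and at 0 to 12.6 in goblet cells. In members with exactly 3 rule genes it was at 58.0, 17.7, 50.4, 14.5, 49.3 and 22.7 CPM, low in the same 3 libraries as Lyz1.

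Notch ligands had lower levels. Dll1 had 40.9, 53.0, 30.6, 36.9, 38.8 and 31.9 CPM in the 4-or-5-gene members, and Dll4 had between 10.1 and 15.0. Goblet cells had levels like these, 33.1 to 91.0 CPM of Dll1 and 8.18 to 12.2 of Dll4. Dll4 was at 1.82 to 3.14 CPM in cells that were no members and at 3.92 to 54.6 in tuft cells, there from 3 to 12 UMIs a library. Dll1 was at 12.9 to 18.1 CPM in cells that were no members and at 23.5 to 45.5 in tuft cells, so that tuft cells and members overlapped for both ligands. Egf was near the limit of detection, at 0.672 to 3.57 CPM. Thbs1, which encodes the secreted matrix protein thrombospondin, had 175, 145, 172, 51, 187 and 89.6 CPM against 3.61 to 9.70 in cells that were no members and 4.72 to 54.2 in goblet cells. Atoh1 and Spdef, the transcription factors of the secretory lineage, had 52.4 to 74.9 and 53.5 to 75.4 CPM against 4.87 to 5.56 and 4.80 to 6.39 in cells that were no members. Goblet cells had 42.5 to 90.0 and 70.9 to 156 CPM of the same factors. Sox9 had 197 to 254 CPM against 77.6 to 105 in cells that were no members and 31.9 to 121 in goblet cells. Summed, the 4-or-5-gene members and goblet cells overlapped both for niche signals (243 to 417 and 278 to 489 CPM) and for lineage regulators (1260 to 1500 and 976 to 1710 CPM).

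The comparison of +EIPA with -EIPA asked how Paneth cells respond to the inhibitor. Enterocyte transcripts were higher in both experiments, Sprr1a and Gda rose in the 4-or-5-gene members, and transcripts of immediate early genes were lower, while lysozyme, Wnt3 and most granule genes differed by less than the spread between libraries. Counts were summed over the cells of each library and tested with edgeR's quasi-likelihood F test with Benjamini-Hochberg adjustment (n = 2 libraries a group). Nothing in the labels says that replicates came from separate mice, and p-values measure the spread between these cultures.

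Without the experiment as a block, edgeR called 0 of 12621 genes over all members (background 0%), while 281 had p-values under 0.05 before adjustment. The same counts in DESeq2 gave 35 genes higher and 1 lower (0.277% and 0.00792% of the genes tested, 0.285% together), and all 36 were also called by edgeR with the block. With experiment as a block, edgeR called 290 higher and 56 lower (2.3% and 0.444% of the genes tested), on 1 residual degree of freedom. In the 4-or-5-gene members edgeR called 2 of 11610 genes without the block (0.0172%, with 410 at an unadjusted p under 0.05) and 217 higher and 54 lower with it (1.87% and 0.465%). There DESeq2 without the block gave 47 higher and 3 lower (0.405% and 0.0258%, 0.431% together). The 2 blocked lists shared 238 genes, 68.8% of the first and 87.8% of the second, all in the same direction. The cells of the second list are part of those of the first.

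Sprr1a, a small proline-rich protein of the cornified envelope that is expressed in stressed epithelia (chromosome 3, 92483952 to 92485895, minus strand), stood at 0.938 and 1.34 CPM in the 4-or-5-gene members of -EIPA and at 19.5 and 33.1 in those of +EIPA. Both treated libraries were above both untreated ones. It rose by 4.52 ± 0.39 (log2, SE; edgeR adjusted p = 0.0208), and without -EIPA replicate 2 the adjusted p was 0.226. A UMI of it was found in few cells: 5 of 490 and 18 of 1141 without EIPA and 45 of 745 and 165 of 1775 with EIPA. In tuft cells, which should lack it, 0 of 131 and 1 of 189 had a UMI without EIPA and 1 of 115 and 7 of 114 (6.14%) with EIPA, at median depths of 4299 to 5921 UMIs against 9160.5 to 11548 in the members, and the part of free RNA was not tested. Enterocytes went from 17.7 and 8.49 to 67.4 and 65.8 CPM. A single member held 74 of the 164 UMIs of +EIPA replicate 1. Over all members Sprr1a did not pass without the block (log2 3.83 ± 0.59, edgeR adjusted p = 1.00) and did with it (adjusted p = 9.60e-06).

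Gda, guanine deaminase, was the other gene called in the 4-or-5-gene members. Its levels were 2.81 and 1.85 CPM without EIPA and 15.7 and 15.6 with EIPA, with no overlap. It rose by 2.89 ± 0.24 (log2, SE; edgeR adjusted p = 0.0208), and without -EIPA replicate 2 the adjusted p was 0.166. In enterocytes Gda went from 35.2 and 23.9 to 88.7 and 140 CPM, and in goblet cells from 2.82 and 1.47 to 7.98 and 18.9. Tuft cells had 0 and 0.989 CPM without EIPA and 5 and 36.4 with it, where 1 cell held 23 of the 29 UMIs of +EIPA replicate 2. With all 5 rule genes neither Gda nor Sprr1a passed, and edgeR called 0 of 10534 genes (324 with p-values under 0.05 before adjustment).

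All 18 genes listed for absorptive cells were higher in +EIPA over all members, with a median log2 change of 1.17 against 0.00 over all genes tested. In edgeR none passed without the block and 16 of 18 rose with it, against 2.3% of all genes. DESeq2, also without the block, called 7 of 18 over all members, against 0.277% of all genes, and 9 of 18 with 4 or 5 rule genes, against 0.405%. In the 4-or-5-gene members the median was 0.97 and 17 of 18 rose with the block, against 1.87% of all genes. Apoa1, the main protein of high-density lipoprotein (chromosome 9, 46228580 to 46230466, plus strand), stood at 174 and 95.3 CPM in the 4-or-5-gene members without EIPA and at 415 and 582 with it. The change was 1.95 ± 0.31 (log2, SE), with an edgeR adjusted p of 0.167 without the block and 9.01e-07 with it. Fabp1, which binds fatty acids, went from 978 and 640 to 1350 and 1570 CPM, with an edgeR adjusted p of 0.521 without the block and 0.000222 with it.

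These transcripts were higher with EIPA in every class of cells examined, Paneth or not. Apoa1 went from 611 and 284 to 1660 and 1770 CPM in cells that were no members, from 210 and 73.6 to 415 and 943 in goblet cells, and from 79.8 and 117 to 233 and 690 in tuft cells, which should lack it and where 1 cell held 296 of the 549 UMIs of +EIPA replicate 2. Barcodes that were not kept went from 1240 and 629 to 3100 and 3040 CPM. Summed over the list, enterocyte transcripts were 2810 and 1910 CPM in the 4-or-5-gene members without EIPA and 4020 and 4690 with it, against 38300, 34000, 48800 and 51500 in enterocytes. The part of free RNA in these changes was not tested.

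Other genes were named for the size of their p among rises, and shared roles among them were not tested. Apoa4 and Apoc3 are apolipoproteins, Creb3l3 is a transcription factor of lipid genes, and Cyp3a13, Gsta1, Adh1 and Ces2c are enzymes that act on foreign compounds and alcohols. In the 4-or-5-gene members Gsta1 went from 156 and 96.4 to 310 and 400 CPM and Cyp3a13 from 17.8 and 11.6 to 42.8 and 48.2. Clca1, a goblet product, went from 27.0 and 28.1 to 35 and 107 CPM, and the tight-junction gene Cldn4 from 16.5 and 20 to 30.2 and 27.1. All 12 of these named rises, with Sprr1a, Apoa1 and Psph, were called over all members with the block (edgeR adjusted p between 9.60e-06 and 0.00390). Without the block edgeR called none of the 12 and DESeq2 called 9, all but Psph, Creb3l3 and Cldn4.

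Genes of amino acid supply were higher too. Among targets of the stress factor ATF4, 12 of 15 tested were higher (median log2 change 0.40). In edgeR 0 passed without the block and 7 rose with it, against 2.3% of all genes. With 4 or 5 rule genes 6 rose with the block, against 1.87%. Psph, the last enzyme of serine synthesis, had 19.7 and 19.2 CPM in the 4-or-5-gene members without EIPA and 40.3 and 35 with it (log2 0.99 ± 0.13, edgeR adjusted p = 0.0912 without and 5.66e-06 with the block). Psat1, the step before, went from 30.4 and 25.7 to 42.8 and 37.4 CPM, and the cystine carrier Slc7a11 from 8.82 and 7.20 to 12.4 and 11.9. The ER folding and unfolded protein response list did not move in that way: 22 of 28 were lower, by a median of 0.08 on the log2 scale, and 0 passed with or without the block.

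Immediate early genes were lower throughout. All 14 listed were lower in +EIPA over all members (median log2 change -0.41), 0 passed in edgeR without the block, and 6 fell with it, against 0.444% of all genes. With 4 or 5 rule genes 8 fell with the block, against 0.465%. Fosb, a subunit of the AP-1 transcription factor (chromosome 7, 19302696 to 19310051, minus strand), had 109 and 63.5 CPM without EIPA and 26.9 and 10.5 with it. The fall was by 2.22 ± 0.41 on the log2 scale (edgeR adjusted p = 0.218 without the block and 2.97e-11 with it). Atf3, a stress-induced factor, went from 124 and 115 to 55.5 and 13.1 CPM, Jun from 438 and 466 to 337 and 188, and Fos from 491 and 480 to 336 and 170. In all kept cells with fewer than 4 rule genes, which include some of the members, the median change of the list was -0.73.

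Hbegf, a ligand of the EGF receptor, had 66.2 and 66.2 CPM in the 4-or-5-gene members without EIPA and 33.9 and 20.3 with it. Areg, another ligand of that receptor, went the other way, from 17.8 and 18.1 to 34.0 and 50 CPM. With the block edgeR's adjusted p was 3.62e-07 for the fall of Hbegf and 1.34e-06 for the rise of Areg, and without it 0.167 for both.

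The other genes named among falls were transthyretin (Ttr), the matrix protein gene Ccn1, Clec2e, Smg6, the mucosal glycoprotein gene Dmbt1, and the enzymes Mvd and Acat2 of the sterol pathway. Mvd had 52 and 46.8 CPM in the 4-or-5-gene members without EIPA and 35.7 and 35.5 with it, with no overlap. Of the 12 named falls 11 were called over all members with the block, and Acat2 was not (edgeR adjusted p = 0.0598).

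Most Paneth products were within the spread between libraries. Lyz1 had 10800 and 12500 CPM in the 4-or-5-gene members without EIPA and 12300 and 11800 with it, and the groups overlapped. Its log2 change was 0.09 ± 0.14 (SE; edgeR adjusted p = 1.00), and over all members 0.16 ± 0.35 (adjusted p = 1.00). Wnt3 changed by -0.02 ± 0.17 and Sox9 by 0.05 ± 0.14 (edgeR adjusted p = 1.00 for both). Of 20 regulators of the Paneth and secretory lineages, 14 were lower over all members (median log2 change -0.06), and only Klf4, a factor of goblet differentiation, passed with the block, where 2.74% of all genes were called. Klf4 had 105 and 88.4 CPM without EIPA and 68.1 and 60.8 with it (edgeR adjusted p = 0.000962 with the block and 0.659 without, in the 4-or-5-gene members). Of 15 genes of the Wnt response and Eph sorting 0 passed in either fit.

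A few Paneth genes changed with the block. Dll1 fell by 0.43 ± 0.10 on the log2 scale in the 4-or-5-gene members (edgeR adjusted p = 0.0214 with the block, 1.00 without). Mptx2 had 446 and 380 CPM without EIPA and 289 and 214 with it (edgeR adjusted p = 3.19e-05 with the block and 0.532 without). Thbs1 passed in that blocked fit (edgeR adjusted p = 0.0219), but its +EIPA replicates lay far apart, at 172 and 51 CPM. Among defensins outside the rule 14 of 15 tested were higher over all members (median log2 change 0.37). In edgeR 0 passed without the block and 5 rose with it, against 2.3% of all genes. With 4 or 5 rule genes 5 rose with the block (median 0.32), against 1.87% of all genes. Defa21 went from 502 and 615 to 614 and 873 CPM in the 4-or-5-gene members (edgeR adjusted p = 0.00902 with the block and 1.00 without). Cells that were no members had only traces of the defensins. The median change of the defensins was 1.08 in all kept cells with fewer than 4 rule genes, which include some of the members.

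Metallothioneins, which bind zinc, were higher in both experiments. Mt1 had 2560 and 4090 CPM in the 4-or-5-gene members without EIPA and 4030 and 6020 with it, so the groups overlapped while each experiment was higher with EIPA (edgeR adjusted p = 0.000199 with the block and 1.00 without). Mt4 went from 7.51 and 7.94 to 22.1 and 67.0 CPM. Genes of the sodium-proton exchange and pH list were higher in 14 of 20 over all members (median log2 change 0.09). With the block 2 rose, against 2.3% of all genes, as 2 did with 4 or 5 rule genes, against 1.87%. Those were Slc9a3r1, the scaffold of the apical exchanger NHE3, at 41.8 and 51.4 against 61.7 and 75.1 CPM, and the anion exchanger Slc26a6, at 6.19 and 5.34 against 13.9 and 13.6.

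Genes of the regenerative, fetal-like programme were higher in 11 of 13 (median log2 change 1.11), with 9 risen and 1 fallen under the block, against 2.3% and 0.444% of all genes. With 4 or 5 rule genes 9 rose and 1 fell with the block (median 1.03), against 1.87% and 0.465% of all genes. S100a6 had 123 and 482 CPM in the 4-or-5-gene members without EIPA and 261 and 918 with it, so that each experiment was higher with EIPA from unlike starting levels. Ly6a (Sca-1) went from 8.63 and 11.1 to 17.8 and 32.1 CPM. In all kept cells with fewer than 4 rule genes, which include some of the members, the median change of the list was 1.54. Proliferation (18 genes), stem cell (12 genes), glycolysis (18 genes) and tuft (10 genes) lists had 0 calls in either fit.

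**Figure D4:**
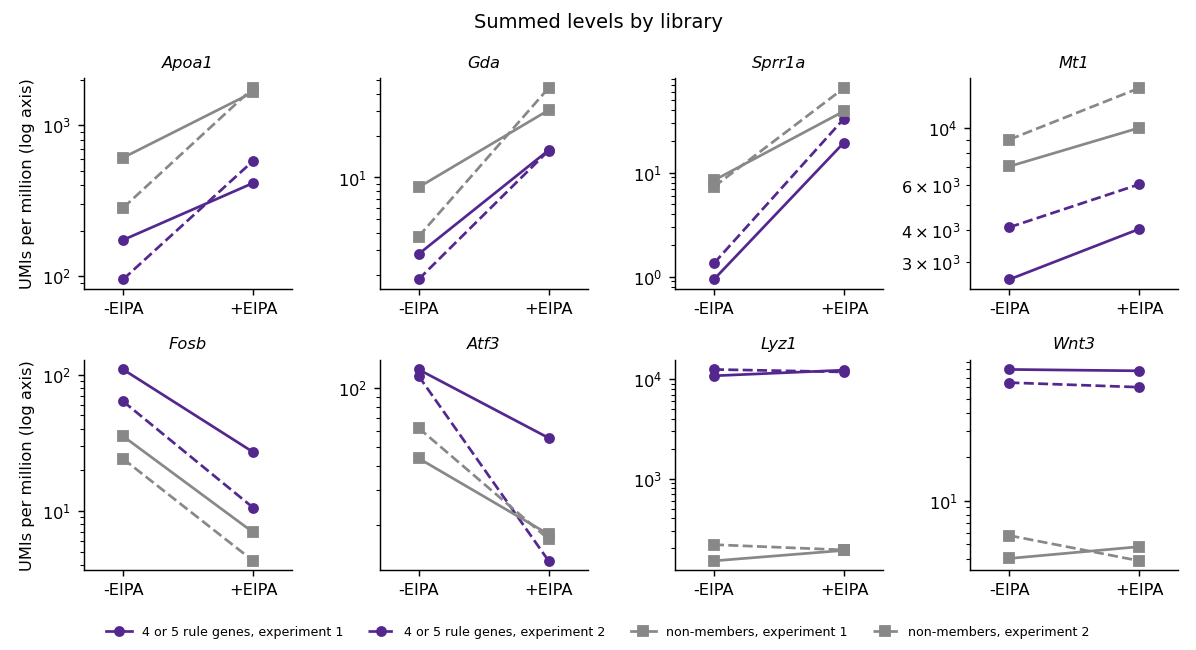
Summed level (UMIs per 1000000, log axis) of 8 genes without and with EIPA, for members with 4 or 5 rule genes (circles) and cells that were no members (squares); each line joins the 2 libraries of an experiment. Apoa1, Gda, Sprr1a and Mt1 are higher with EIPA and Fosb and Atf3 lower in both kinds of cells, while Lyz1 and Wnt3 lie within the spread between libraries in the members.

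Whether a change was larger or smaller in Paneth cells than elsewhere was tested as an interaction, with each library as a block (edgeR, Benjamini-Hochberg adjustment). Against goblet cells, of which the WT libraries held 100, 50, 107 and 41, all members differed at 3 of 11044 genes (0.0272%), each with a more positive change in members. They were Ly6d (difference of log2 changes 5.08 ± 0.42, adjusted p = 1.22e-05), Tm4sf4 (1.78 ± 0.27, adjusted p = 0.0187) and Scin (2.15 ± 0.33, adjusted p = 0.0187). Genes that chose the goblet cells were left out of the counts against goblet cells. Among those, Clca1 had a difference of 1.16 ± 0.20 over all members (edgeR adjusted p = 0.0401), which is a description only. Ly6d was at most 6.46 CPM in the 4-or-5-gene members. Tm4sf4, a membrane protein of the transmembrane 4 family, had 8.95 and 23.5 CPM in members without EIPA and 39.7 and 87.0 with it, while goblet cells had 67.7 and 100 CPM without EIPA and 82.7 and 112 with it. Cells that were no members went from 25.1 and 28.8 to 98.4 and 158 CPM, and the change of Tm4sf4 in members differed from theirs by -0.32 ± 0.33 (log2, SE; edgeR adjusted p = 1.00). With the top 10% of doublet scores removed only Ly6d passed, and without +EIPA replicate 2 Scin did not.

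In the 4-or-5-gene members 7 genes had a more positive and 3 a less positive change than in goblet cells, of 10501 tested (0.0667% and 0.0286%). Sprr1a was among the first (difference 3.35 ± 0.62, edgeR adjusted p = 0.0226). Goblet cells had more of it without EIPA, with 14 of 100 cells and 5 of 50 cells holding a UMI in the -EIPA libraries. Apoc2, an apolipoprotein, was among the second (difference -1.75 ± 0.31, edgeR adjusted p = 0.0148).

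Against all kept cells with fewer than 4 rule genes, 2 genes had a more positive and 27 a less positive change, of 15391 tested (0.013% and 0.175%, 0.188% together). Guca2b, which encodes the gut hormone uroguanylin, led the second group. It had 972 and 540 CPM in the 4-or-5-gene members without EIPA and 980 and 668 with it, so the groups overlapped. In the other cells it went from 146 and 77.9 to 468 and 505 CPM (difference of log2 changes -2.03 ± 0.14, edgeR adjusted p = 2.21e-13). Those other cells are a mixture whose make-up moved too: enterocytes were 2725 of the 12606 and 1735 of the 18211 cells kept without EIPA and 3803 of 13194 and 2951 of 14262 with it. Enterocytes themselves went from 580 and 432 to 1370 and 1600 CPM of Guca2b. The part of make-up in the 27 less positive changes was not tested. Prxl2a was also high in the 4-or-5-gene members without EIPA, at 131 and 103 CPM, and was at 119 and 102 with it, while the other cells went from 64.6 and 32.2 to 116 and 143. All members were set against the cells that were no members, another comparison class, and there no gene passed (0 of 15456, with 168 at an unadjusted edgeR p under 0.05).

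**Figure D5:**
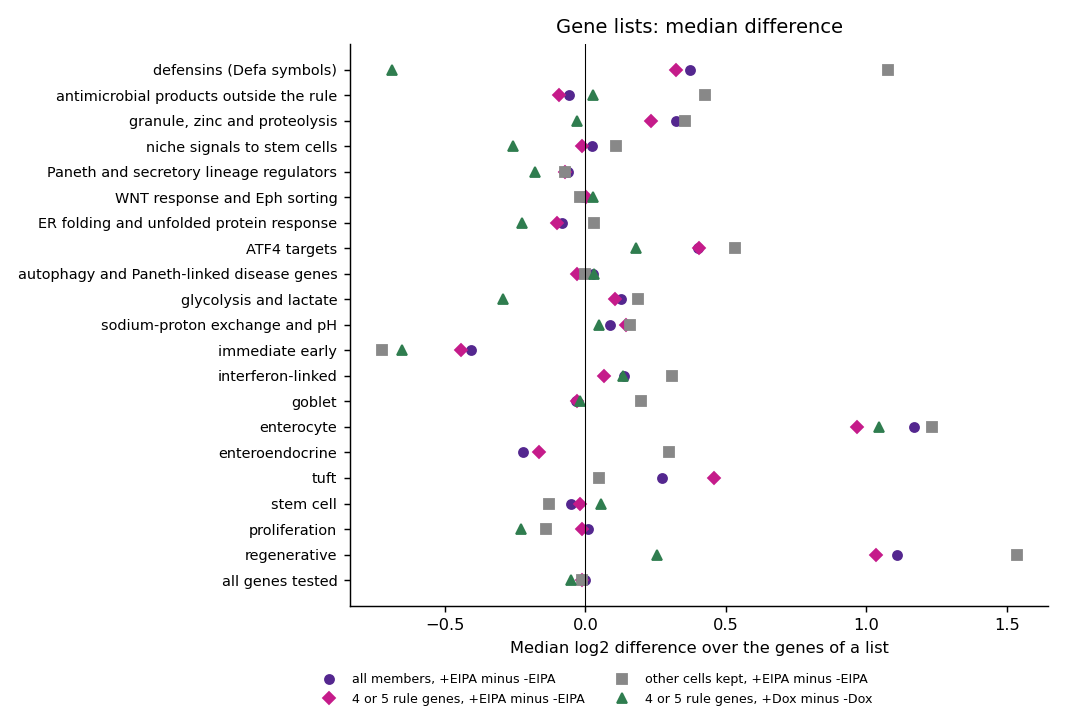
Median log2 difference over the genes of each list. For +EIPA minus -EIPA it is shown in all members, in members with 4 or 5 rule genes and in the other cells kept. Those other cells had fewer than 4 rule genes and include some of the members. For +Dox minus -Dox (1 library each, no test) it is shown in members with 4 or 5 rule genes. The enterocyte list has medians of 0.97 to 1.24 and the immediate early list of -0.41 to -0.73, while the lists of lineage regulators and of the Wnt response lie near 0 for EIPA.

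The +Dox and -Dox libraries were compared without a test, since there is 1 of each and the +Dox cells were gated on GFP. Of 2656 genes at a mean of 50 CPM or more over all members, 42 were higher by 2-fold or more in +Dox (1.58%) and 13 lower (0.489%). In the 4-or-5-gene members 22 and 10 of them were (0.828% and 0.377%). The 2 libraries differ in the share of 3-gene members and in free RNA, and the values below are for the 4-or-5-gene members, with exact Poisson intervals.

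Apoa1 had 205 CPM in -Dox (194.8 to 215.8) and 608 in +Dox (599.1 to 617.3). The enterocyte list was higher in 17 of 17 genes at 10 CPM or more, with a median log2 ratio of 1.05 against -0.05 over all genes. Reg3a, a lectin that kills Gram-positive bacteria, had 29.1 and 97.6 CPM, and Leap2, a liver-expressed antimicrobial peptide gene, 22.9 and 77.1. Apoa1 in barcodes that were not kept went from 1130 to 6480 CPM, and in tuft cells it was 82.5 and 36.4, which rest on 18 UMIs in 45 cells and 4 UMIs in 14 cells.

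Among genes lower in +Dox, AY761184 went from 236 to 24.9 CPM and Defa21 from 220 to 31.9. The 8 defensins at 10 CPM or more outside the rule were all lower, by a median of 0.69 on the log2 scale, while Lyz1 stood at 21800 and 23900 CPM and Defa24 at 69700 and 74300. Fosb went from 101 to 31.0 CPM, Fos from 565 to 212, Thbs1 from 187 to 89.6 and the chemokine Ccl9 from 446 to 188. Of the immediate early genes 13 of 14 were lower (median log2 ratio -0.65). ER folding genes were lower in 26 of 27 (median -0.22). Medians over defensins outside the rule thus had opposite signs, over 15 genes for EIPA and 8 for Dox. These sets of genes are not the same, and the difference between the comparisons was not tested.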

How the data were processed

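Mouse organoid cells were profiled on day 3 with the 10x 3' assay in 6 libraries. The deposited matrices hold whole UMI counts for barcodes called as cells, which the authors made with Cell Ranger 6.1.2 on mm10 (GRCm38), with no removal of free RNA or doublets stated. Groups came from the labels.

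Members were picked by the stated rule, and members, gene lists and the limit of 4 rule genes were chosen with earlier results of these data known. Their counts were summed per library, scaled by TMM, filtered with filterByExpr, and tested with edgeR 4.0.16 (quasi-likelihood, Benjamini-Hochberg adjustment, threshold 0.05) in R 4.3.3; rule genes were left out of the calls. Interactions had a term for each library. The SE printed with an edgeR log2 change is the size of that change divided by the square root of its F statistic. DESeq2 1.42.0, the experiment as a block, other filters and scalings, and single libraries left out were alternatives. The study's source data pair replicate 1 with 1 and 2 with 2, and deviations of same-numbered libraries correlated across 12628 genes (r = 0.73 over all members, 0.487 with 4 or 5 rule genes). Goblet cells were taken by 3 or more of Muc2, Clca1, Fcgbp, Zg16 and Tff3 and at most 1 rule gene. Those goblet genes were left out of the calls against goblet cells. Scrublet scores (scanpy 1.11.5) marked the top 10% of cells of each library as doublet candidates, after its own limit called none in some libraries. CPM are summed UMIs per 1000000.

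Named genes were the 12 rises and 12 falls at a mean of 20 CPM or more with the lowest p-values, the 25 genes highest in members over other cells, the 8 largest rises and falls with Dox at 50 CPM or more, the 10 lowest p of each interaction, and leading members of each list; Gda and list members shown beyond these were chosen after their values were seen. On simulated counts for the members, edgeR without the block found 33% of genes changed by 1 and 98% of genes changed by 2 (log2). With 4 or 5 rule genes it found 84% and 100%. With the block it found 100% of each in both sets of cells, on counts simulated without differences between experiments. Results for the gene targeted in the CRISPR-Cas9 line and for 1 other gene are not reported here. Promoter sequences are RefSeq's on GRCm38.p6.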

Additional observations from a re-analysis of the deposited data

Results flagged for a closer look

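Each gene here had an EIPA change that differed between members and another class by an interaction test (edgeR, adjusted p under 0.05), and values are the difference of log2 changes, members minus the other class. Over all members most cells of both replicate 2 libraries had exactly 3 rule genes and low Lyz1, so those values are not of Paneth cells alone. Against goblet cells, of which single libraries held 41 to 107, all members differed for Ly6d (5.08), Tm4sf4 (1.78) and Scin (2.15). Genes that chose the goblet cells were left out of the differences from goblet cells. Members with 4 or 5 rule genes differed from goblet cells for Ly6d (5.69), Tm4sf4 (1.69), Sct (1.49), Selenom (0.76), Lgals3 (1.39), Sprr1a (3.35) and Ccl6 (1.65), and in the other direction for Apoc2 (-1.75) and Leap2 (-2.37). Sct, secretin, is a hormone of enteroendocrine cells, and its level in these members was 105 and 99 CPM without EIPA and 123 and 113 with it.

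Against all kept cells with fewer than 4 rule genes, the 10 genes of lowest p were Guca2b (-2.03), Apoc2 (-1.71), Prxl2a (-1.59), Gde1 (-1.39), Pnliprp2 (-1.21), Nupr1 (-1.10), Ptprr (-1.65), Guca2a (-1.05), Anpep (-1.04) and Sprr1a (1.65). For Sprr1a the larger log2 change started from a low level, 0.938 and 1.34 CPM in these members without EIPA and 19.5 and 33.1 with it. The kept cells with fewer than 4 rule genes went from 8.32 and 7.22 to 39.5 and 65.2 CPM, and goblet cells from 276 and 100 to 530 and 198. Single goblet cells held 99 of 294, 47 of 68, 137 of 731 and 75 of 168 of those UMIs in -EIPA replicates 1 and 2 and +EIPA replicates 1 and 2. The part of free RNA in these differences was not tested.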

How the results depend on the processing

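Calls for EIPA rested on the fit. Over all members 0 genes passed in edgeR, with 36 in DESeq2, 150 without the filter, 346 with the replicate block and between 0 and 2 with 1 library left out. In members with 4 or 5 rule genes 2 passed, with 271 under the block, 50 in DESeq2, 23 with library sizes unscaled, 2 with Defa and rule genes out of library sizes, 0 with all 5 rule genes required, and 0, 79, 180 and 64 without -EIPA replicate 2, -EIPA replicate 1, +EIPA replicate 1 and +EIPA replicate 2. Alternatives that join the limit of 4 rule genes, or 5 or exactly 3, with another choice were added after seeing the data, as was the doublet limit. Goblet differences numbered 3, with 27 without the filter, 7 with library sizes unscaled, 1 with doublet candidates removed, 10 with 4 or 5 rule genes and 17 to 74 with a library left out. Differences from the other cells numbered 0, with 6 without the filter, 29 with 4 or 5 rule genes and 11 to 62 with a library left out.

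The mean share ratio of 1.5 became 1.72 with 4 or 5 rule genes, 1.75 with those after thinning and 2.19 with all 5. The ratio of group means was 1.57, and 0.653 to 3.31 with a library left out, the lowest without +EIPA replicate 2. Defensin shares of 7.66% (-EIPA) and 8.36% (+EIPA) became 11.9% and 13.0% with 4 or 5 rule genes. They were 4.09% and 4.21% as medians over cells, and 9.24% and 9.92% with doublet candidates removed. Genes 2-fold apart with Dox numbered 55, and 32 with 4 or 5 rule genes.

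The sign of Lyz1 turned in members with exactly 3 rule genes (-0.071, log2), and its change ran from -0.30 to 0.56 with a library left out. With a library left out, Klf4 ran from -0.92 to 0.048, Mptx2 from -1.22 to 0.16 and Clu from -0.71 to 2.60. Mptx2 was at 0.32 in members with exactly 3 rule genes, and without +EIPA replicate 2, with 4 or 5 rule genes, S100a6 was at -0.21 and Clu at -1.0. The cause was not tested. The 24 named rises and falls kept their direction in all 576 pairs of gene and setting. They were picked by their p in the main fit, and every setting reuses the same libraries, so that agreement is no separate evidence. Free RNA, 2 libraries a group and 1 residual degree of freedom under the block limit the calls for EIPA.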

Other observations

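For lists that the text has not described, calls over all members (edgeR) can be read against 2.74% of all genes called with the block, 2.3% higher and 0.444% lower. Of 19 antimicrobial products outside the rule, 0 passed without the block, and with it 2 rose (Reg3a and Gm15293) and 2 fell (Mptx2 and Pigr). Of 15 genes for granules, zinc and proteolysis 3 rose with the block (Mt1, Mt2 and Mt4) and 1 fell (Dmbt1), and of 12 niche signals 3 rose (Areg, Btc and Bst1) and 1 fell (Dll1). Of 11 interferon-linked genes 1 rose (Ifit1), of 17 goblet genes 2 rose (Clca1 and Zg16), and of 14 enteroendocrine genes 1 rose (Nts). With 4 or 5 rule genes and the block, 1.87% of all genes were called higher and 0.465% lower. There the niche list had 2 risen and 2 fallen, the goblet list 1 risen, and the enteroendocrine list 1 risen and 1 fallen. The interferon-linked list had 0 of 9, and the counts of the antimicrobial and granule lists were as over all members. Of 12 autophagy and disease-linked genes 0 passed in either fit.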
